A study of Mus musculus with 4 samples.

Results

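Scavenger receptors are cell surface proteins that bind chemically altered proteins and lipoproteins, among them acetylated, oxidized and glycated forms. The 7 genes described here are Cd36, Msr1, Scarb1, Stab1, Stab2, Olr1 and Marco. They were chosen by name from the 15575 genes of the deposited table, and all 7 were found there and were kept in the test of read counts. The RNA came from adherent peritoneal macrophages of male C57BL/6 mice, 8 to 12 weeks old, with no engineered allele in either group. The control mice received bovine serum albumin (BSA) and the treated mice received AGEs, made from BSA by reaction with dehydroascorbic acid, in both cases intravenously at 10 mg/kg/day. Dosing began 24 h before an intraperitoneal injection of thioglycollate (TG), an irritant that draws monocytes into the cavity and was given to all mice. The peritoneal cells were taken 72 h after TG, and those that adhered within 2 h were used. Each group had 2 libraries, called biological duplicates, but no source states if a library was 1 mouse or a pool. The p-values below therefore measure the spread between these duplicates only, as edgeR shares it between genes.

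The receptors fall into structural classes. Class A holds MSR1 and MARCO, trimeric proteins with a collagen-like stalk that bind ligands such as acetylated LDL and bacteria. Class B holds CD36, a fatty acid and oxidized LDL receptor with a large extracellular loop, and SCARB1 (SR-BI), the HDL receptor that transfers cholesteryl esters. OLR1 (LOX-1), class E, is a C-type lectin-like receptor for oxidized LDL that is best known from endothelial cells. STAB1 and STAB2 (stabilins), class H, are very large receptors that clear modified albumin, hyaluronan and other ligands, STAB2 mainly in sinusoidal endothelium of liver, spleen and lymph node and STAB1 also in tissue macrophages. Several members are known to bind proteins carrying advanced glycation end products, and an antibody to CD36 was among the receptor antibodies the study used in its binding assays. The RNA-seq comparison addresses whether the mRNA of these receptors differed in macrophages from mice given AGEs.

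All 7 genes lie on the minus strand of GRCm38.p6. Cd36 (Entrez gene 12491) spans chromosome 5 from 17781690 to 17888959, and its longest coding transcript has 15 exons and 3399 nt. Scarb1 (20778) lies on the same chromosome from 125277087 to 125341094, with 13 exons and 2521 nt. Msr1 (20288) spans chromosome 8 from 39543232 to 39642750 with 9 exons and 3636 nt, and Marco (17167) spans chromosome 1 from 120474538 to 120505024 with 17 exons and 1925 nt. Olr1 (108078) lies on chromosome 6 from 129479150 to 129507350, with 8 exons and 3572 nt. The stabilin genes have the same number of exons, 69, and transcripts of nearly the same length. Stab1 (192187) packs 7999 nt into chromosome 14 from 31139017 to 31168651, and Stab2 (192188) spreads 8228 nt over chromosome 10 from 86841194 to 87008038. The longest overlap of a Stab1 exon with an exon of Nt5dc2, on the opposite strand, is 112 nt. For Stab2 and the antisense gene Gm16268 the longest is 141 nt. The sources used here do not state whether counting used the strand, so reads in those stretches cannot be assigned with certainty.

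The promoter sequences are shown because the myeloid factor PU.1, product of Spi1, is among the regulators measured below. RefSeq's promoter table for GRCm38.p6 held 5 of the 7 genes (Cd36, Olr1, Stab1, Stab2 and Marco). It was searched on both strands for the PU.1 core GAGGAA from 250 bases before to 50 bases after the start. The core was found once in Marco, Olr1 and Stab1, beginning at -146, -76 and -30 from the start, and 28.3% of 32851 promoters hold it. These letters are not in the windows of Cd36 and Stab2. In Olr1 the core is on the opposite strand and reads TTCCTC in the printed sequence. The 250 bases before the start follow, 5′ to 3′ on the gene's strand, with the PU.1 core in capitals, at chr1:120505025-120505274 for Marco, chr6:129507166-129507415 for Olr1 and chr14:31168642-31168891 for Stab1.
Marco: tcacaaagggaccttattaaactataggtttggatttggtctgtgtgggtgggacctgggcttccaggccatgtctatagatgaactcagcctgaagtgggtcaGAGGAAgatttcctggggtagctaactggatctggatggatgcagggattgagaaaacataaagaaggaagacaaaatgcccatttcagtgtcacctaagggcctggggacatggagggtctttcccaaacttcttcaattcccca
Olr1: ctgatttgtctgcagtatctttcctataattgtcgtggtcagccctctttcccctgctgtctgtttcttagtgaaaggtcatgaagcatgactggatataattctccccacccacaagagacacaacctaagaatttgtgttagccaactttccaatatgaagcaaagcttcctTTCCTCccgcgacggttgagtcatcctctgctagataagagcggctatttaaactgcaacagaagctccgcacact
Stab1: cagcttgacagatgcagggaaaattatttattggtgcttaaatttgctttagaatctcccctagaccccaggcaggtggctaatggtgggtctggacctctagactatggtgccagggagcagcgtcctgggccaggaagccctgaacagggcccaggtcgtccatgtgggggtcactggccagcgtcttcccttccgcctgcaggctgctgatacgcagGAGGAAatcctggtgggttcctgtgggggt
The Olr1 window also holds the AP-1 motif TGANTCA at -60, which 7.81% of promoters hold. Cd36 has 12 listed transcripts, and the start in the table lies inside the annotated gene, so this window is 1 of several possible promoters. In it the GC box GGGCGG (35.7% of promoters hold it on either strand) occurs at -109 and again at -93. The sequence at chr5:17835897-17836146 is given with those boxes in capitals.
Cd36: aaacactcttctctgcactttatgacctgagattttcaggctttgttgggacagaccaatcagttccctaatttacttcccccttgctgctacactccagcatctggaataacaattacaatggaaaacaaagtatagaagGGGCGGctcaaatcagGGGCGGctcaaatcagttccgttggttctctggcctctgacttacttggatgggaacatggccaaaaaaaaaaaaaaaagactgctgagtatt
No TATAAA (13.6% of promoters) or CACGTG (7.15%) was found in the 5 windows. A match is a match of letters only.

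The libraries held 17773088 and 22146761 counts in the BSA group and 23079245 and 24472926 in the AGEs group. On principal component 1, BSA replicate 1 had a score of -34.6 and the other libraries 5.08 to 16.9, and values without it are given where they matter. The 8 macrophage markers (Adgre1, Itgam, Csf1r, Lyz2 and others) were all measured and summed to 13678 to 17285 CPM (counts scaled to library size after TMM normalization), and none differed between the groups past the study's limits. Of the 10 endothelial markers, Tek, Cldn5, Prox1, Emcn, Clec4g and Egfl7 had no row, and the remaining 4 summed to 22.6 to 28.8 CPM. None of the 8 adipocyte markers had a row, and the 8 mesothelial markers summed to 6.13 to 8.48 CPM. No count deposited was below 1, so a marker without a row may still have had reads in some libraries. Erythroid genes (5 of 6 measured) summed to 221 CPM in AGEs replicate 2 against 2.45 to 18.1 in the other libraries. Of the 6 dendritic cell markers, Xcr1 and Clec9a had no row. Flt3, Ccr7 and Cd209a were lower with AGEs past the limits, as were 0.945% of all genes tested. Zbtb46 was not, with a log2 fold change of 0.04. Cd209a had only 25 and 21 counts with BSA and 11 and 12 with AGEs. The 4 measured dendritic cell markers summed to 15.8 and 13.1 CPM with BSA and 6.86 and 10.1 with AGEs. The part of these cells in the receptor values was not tested.

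Of the 7 receptor mRNAs Cd36 was by far the most abundant in these macrophages and Stab2 the least. Levels are compared as TPM, which is per transcript length. Cd36 had 1337 and 1092 TPM with BSA and 1303 and 1088 TPM with AGEs, a mean of 1205 ± 133 (SD, n = 4). That placed it at rank 32 of the 15575 genes, and it took 0.241% to 0.294% of the counts of a library. Msr1 was next, at 177 and 115 TPM with BSA and 130 and 126 with AGEs, so that Cd36 exceeded it 7.55- to 10.05-fold within the libraries and their ranges did not overlap. Stab1 followed with 119 and 98.2 TPM with BSA and 84.3 and 116 with AGEs. Olr1 had 92.3 and 68.9 TPM with BSA and 68.8 and 81.6 with AGEs, so this receptor, best known from endothelium, ranked 942 by mean TPM. Marco (24.1, 32.98, 24.4 and 20.1 TPM in BSA replicates 1 and 2 and AGEs replicates 1 and 2) and Scarb1 (26.8, 22.04, 26.6 and 22.2 TPM) stood together at ranks 3540 and 3681. Stab2 was at 0.414 and 0.397 TPM with BSA and 0.593 and 0.515 with AGEs, rank 13744.

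**Figure D1:**
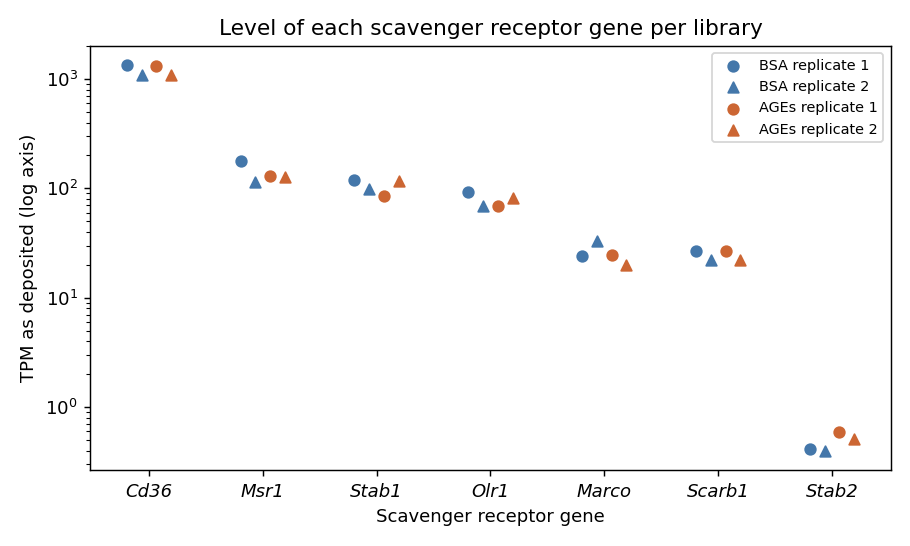
TPM of the 7 scavenger receptor genes in each of the 4 libraries, on a log axis, with blue for BSA, orange for AGEs, circles for replicate 1 and triangles for replicate 2. Cd36 sits at 1088 TPM or more in every library, Stab2 at 0.593 or less, and the 2 groups are mixed at each gene other than Stab2.

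Some neighbours in this order did not separate. Msr1 was above Stab1 in 4 of 4 libraries, by 1.09- to 1.54-fold, and Stab1 above Olr1 in 4 of 4, by 1.22- to 1.43-fold, but across libraries the ranges of each pair overlapped. Marco was above Scarb1 only in BSA replicate 2 (ratio 1.496) and below it in the other 3 libraries (0.897 to 0.919), so the order of this pair by mean TPM rests on 1 library. Olr1 exceeded Marco 2.09- to 4.06-fold and Scarb1 exceeded Stab2 43.1- to 64.7-fold, without overlap of the ranges. Read counts per kb gave the same order for 7 of 7 genes. So did FPKM, but within a library it is TPM on another scale and is no separate check. Within the classes, the collagen-like receptor Msr1 exceeded Marco 3.49- to 7.35-fold, the fatty acid receptor Cd36 exceeded the HDL receptor Scarb1 49.0- to 49.8-fold, and Stab1 exceeded Stab2 142- to 288-fold, all by TPM.

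No receptor mRNA differed between the AGEs and BSA macrophages past the study's limits, which ask for a fold change above 1.5 together with an unadjusted p below 0.05. By edgeR's quasi-likelihood test, 0 of 7 members passed, where 1.77% of the 14181 genes tested did (0.825% higher and 0.945% lower with AGEs). At an unadjusted p under 0.05 without the fold limit the members again numbered 0, against 5.64% of genes (800), and at an adjusted p under 0.05 no gene of the whole table passed (0.0%). DESeq2 and limma-voom also placed 0 of the 7 past the limits. The log2 fold change, AGEs over BSA, was above 0 for 4 members (Cd36, Scarb1, Stab2 and Olr1) and below 0 for 3 (Msr1, Stab1 and Marco), with a median of 0.02 beside a median of -0.0026 over all genes tested. In whole-population RNA, a receptor with fewer expressing cells cannot be told apart from one with less mRNA per cell.

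Cd36, the class B receptor that was targeted by antibody in the binding assays of the study, had 49118 and 53293 counts with BSA and 67833 and 60312 with AGEs. After scaling these were 2715 and 2415 CPM with BSA and 2962 and 2483 CPM with AGEs. AGEs replicate 1 was highest and BSA replicate 2 lowest, and the groups overlapped. Markers of platelets, which also express Cd36, had a row for 4 of 7 genes and summed to 119 and 79.9 CPM with BSA and 114 and 110 with AGEs. Nearly all of that sum was Pf4 alone, at 117 and 76.4 CPM with BSA and 111 and 107 with AGEs. Itga2b, Gp1bb and Treml1 were each at 2.49 CPM or less in every library. The part of platelets in the Cd36 values was not tested. The means of Cd36 were 2565 ± 212 and 2723 ± 339 CPM (SD, n = 2), and the log2 fold change was 0.09 (SE 0.10). The 95% interval of -0.14 to 0.31 corresponds to 0.911- to 1.24-fold. The interval thus stops short of 1.5-fold in both directions (adjusted p = 0.939, edgeR), as do those of Msr1, Stab1, Olr1 and Scarb1 given below.

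Scarb1, the HDL receptor, had 40.8 and 39.3 CPM with BSA and 46.9 and 39.1 with AGEs. AGEs replicate 1 was above the other 3 libraries, which lay close together, so the groups overlapped. Its log2 fold change was 0.10 (SE 0.12) with an interval of 0.898- to 1.28-fold (adjusted p = 0.938, edgeR). Scarb1 and Cd36 had the most similar pattern of any pair of members, with a root mean square difference of 0.041 in log2 CPM deviations over the 4 libraries.

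Msr1, the founding class A receptor, had 444 and 333 CPM with BSA and 357 and 357 with AGEs. The AGEs libraries were nearly identical, and both lay between the 2 BSA libraries, which differed 1.33-fold. The log2 fold change was -0.12 (SE 0.12), with an interval of 0.769- to 1.10-fold (adjusted p = 0.928, edgeR). Marco, the other class A member, had 28.5 and 44.6 CPM with BSA and 32.9 and 27.1 with AGEs. Its highest library was BSA replicate 2, and BSA replicate 1 fell between the AGEs libraries. The log2 fold change was -0.29 (SE 0.20), and the interval of 0.600- to 1.12-fold includes a 1.5-fold decrease (adjusted p = 0.911, edgeR). In the BSA group Msr1 and Marco went opposite ways, Msr1 being higher in replicate 1 and Marco in replicate 2.

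Olr1, the lectin-like receptor for oxidized LDL, had 194 and 167 CPM with BSA and 166 and 199 with AGEs. Each group had 1 library near the upper and 1 near the lower value. The log2 fold change was 0.02 (SE 0.11), with an interval of 0.863- to 1.19-fold (adjusted p = 0.992, edgeR). Stab1 had 584 and 550 CPM with BSA and 470 and 646 with AGEs. Both BSA libraries lay between the AGEs libraries, which differed 1.38-fold. Its log2 fold change was -0.02 (SE 0.13), with an interval of 0.801- to 1.21-fold (adjusted p = 0.991, edgeR).

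Stab2, the stabilin of sinusoidal endothelium, was the only member whose groups did not overlap. It had 40 and 53 counts with BSA and 82 and 76 with AGEs, or 2.21 and 2.40 CPM against 3.58 and 3.13 CPM. Both AGEs libraries were above both BSA libraries. Groups that do not overlap were seen in 35.3% of all genes tested, so 1 of 7 is not above that background. The log2 fold change of 0.54 (SE 0.35) did not pass the limits (adjusted p = 0.902, edgeR), and at this depth the interval is wide, from 0.865- to 2.43-fold. The endothelial markers with a row summed to 28.5 and 28.8 CPM with BSA and 22.6 and 25.9 with AGEs. Of these 4, only Kdr separated the groups (10.998 and 13.1 CPM with BSA, 8.21 and 9.47 with AGEs), while Pecam1, Cdh5 and Lyve1 overlapped. Their part in the Stab2 values was not tested.

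**Figure D2:**
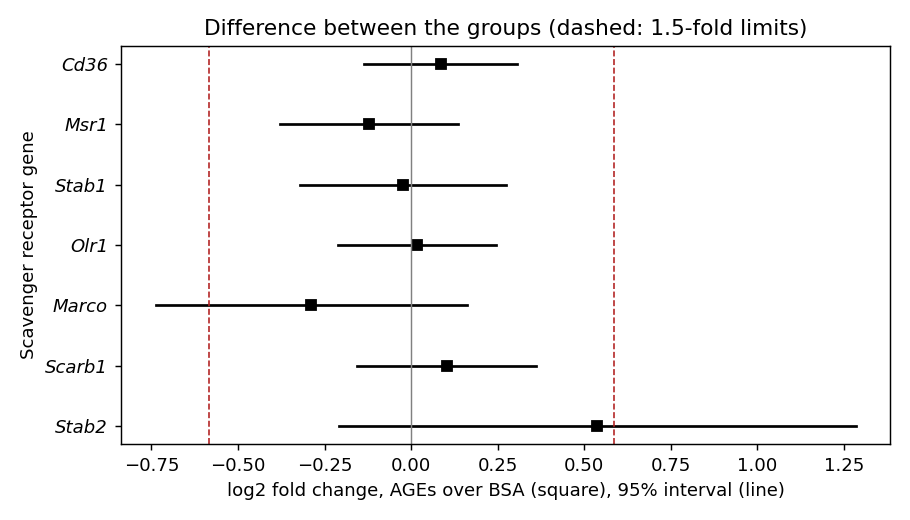
Log2 fold change of each receptor gene, AGEs over BSA (squares), with its 95% interval (lines) from edgeR, and dashed lines at 1.5-fold in each direction. All 7 intervals cross 0. Those of Cd36, Msr1, Stab1, Olr1 and Scarb1 lie within the dashed lines, and those of Marco and Stab2 reach past one of them.

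The spread between duplicates differed from receptor to receptor. The log2 gap between the 2 BSA libraries was 0.65 for Marco, larger than in 86.7% of genes, and 0.41 for Msr1, larger than in 75.5%. The median gap over all genes was 0.20 in the BSA group and 0.16 in the AGEs group. Between the 2 AGEs libraries Stab1 had the widest gap of the members, 0.46, larger than in 82.2% of genes, and Msr1 the narrowest, 0.0023, larger than in 0.797%. The gaps of Cd36 were 0.17 and 0.25 and those of Olr1 0.22 and 0.26 in the BSA and AGEs groups. Scarb1 had gaps of 0.056 and 0.26, and Stab2 had gaps of 0.12 and 0.19.

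**Figure D3:**
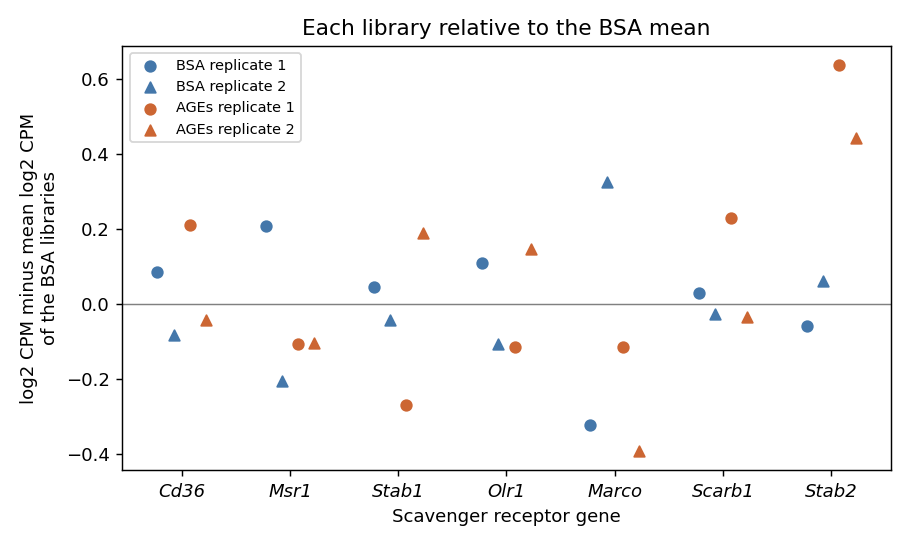
Log2 CPM of each library minus the mean log2 CPM of the 2 BSA libraries, for each receptor gene, with colours and symbols as for the TPM plot. The orange and blue points overlap at every gene but Stab2, and the blue points of Marco and Msr1 are the farthest apart.

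Leaving out 1 library at a time showed which values hang on a single library. These fits take the single library left in a group to scatter as the other group does. Without BSA replicate 2 the log2 fold change of Msr1 was -0.31 (SE 0.084), with an unadjusted p under 0.05 as for 10.8% of genes in that fit. Without BSA replicate 1 it was 0.10. Marco went to -0.58 without BSA replicate 1 (SE 0.15). Its unadjusted p was then under 0.05, as for 5.9% of genes in that fit, and its change fell short of the 1.5-fold limit. Without BSA replicate 2 Marco was at 0.08. The 2 class A receptors thus depended on the BSA libraries in opposite senses. Stab1 was at -0.27 without AGEs replicate 2 (unadjusted p under 0.05, as for 4.14% of genes) and at 0.19 without AGEs replicate 1. Cd36 ranged from -0.05 without AGEs replicate 1 to 0.21 without AGEs replicate 2, Scarb1 from -0.03 to 0.23 for the same libraries, and Olr1 from -0.12 to 0.14. Stab2 kept its sign in each of these fits, from 0.44 to 0.63. No member passed both limits in any of them.

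**Figure D4:**
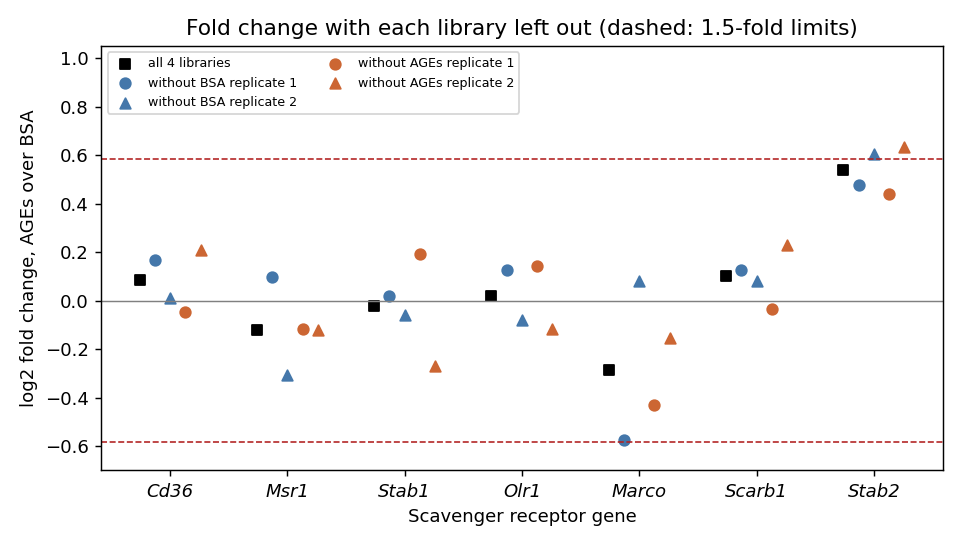
Log2 fold change, AGEs over BSA, of each receptor gene with all 4 libraries (black squares) and with 1 library left out (blue, BSA; orange, AGEs), and dashed lines at 1.5-fold. The values of 6 genes fall on both sides of 0, and those of Stab2, 0.44 to 0.63, stay above it.

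Base composition moved with the comparison, so the log2 fold changes were also computed with a GC correction. Whether the GC trend was technical or biological was not tested. Genes within 1 percentage point of the GC content of Cd36 (38.4%) and of Msr1 (38.4%) had median log2 fold changes of -0.08 each, and those near Stab1 (57.3%) had a median of 0.12. After the GC trend of each library was removed, the log2 fold change of Cd36 was 0.17 (SE 0.10) and that of Msr1 -0.04. Stab1 moved to -0.15 and Scarb1 (56.2% GC) to 0.0032. Marco was at -0.35 (SE 0.19), Olr1 at 0.09 and Stab2 at 0.51. None passed the limits with the correction.

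The shares of the receptors in their common pool overlapped between the groups for every member but Stab2. Cd36 made up 75.2% and 76.4% of the summed TPM of the 7 genes with BSA and 79.6% and 74.8% with AGEs (75.8% ± 0.806 against 77.2% ± 3.36, SD, n = 2, exact two-sided permutation p = 1). With 2 libraries against 2, this test cannot give a p below 0.333. The share of Msr1 was 9.97% and 8.06% with BSA and 7.92% and 8.67% with AGEs (exact permutation p = 0.667). Stab1 took 5.15% to 7.95% and Olr1 4.205% to 5.61% over the 4 libraries. Marco took 1.36% to 2.31%, and Scarb1 1.51% to 1.62%. The 7 genes summed to 4008 and 3552 CPM with BSA and 4039 and 3755 with AGEs, which overlapped.

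The TPM ratios of Stab1 to Stab2 and of Cd36 to Scarb1 separated the groups at that smallest p. Those of Cd36 to Msr1 and of Msr1 to Marco, Stab1 and Olr1 overlapped. A p of 0.333 is too large to tell such a separation from chance. The TPM ratio of Stab1 to Stab2 was 288 and 248 with BSA and 142 and 224 with AGEs (exact permutation p = 0.333), which rests on the 40 to 82 counts of Stab2. The share of Stab2 was 0.0233% and 0.0278% with BSA and 0.0363% and 0.0354% with AGEs (exact permutation p = 0.333). The ratio of Cd36 to Scarb1 was 49.8 and 49.5 with BSA and 49.0 and 49.0 with AGEs by TPM, but by read counts it was 66.5 and 61.5 against 63.1 and 63.5, where the groups overlapped. Whether these genes separate the groups by their ratio thus depends on the scale.

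Of 16 scavenger receptors outside the family, 10 had a row and 9 were tested. None passed the limits or had an unadjusted p under 0.05, 7 were above 0 and 2 below, and the median log2 fold change was 0.04. Cd68, the lysosomal class D receptor and macrophage marker, was at 0.03 (-0.02 with the GC correction), and Scarb2, the lysosomal class B relative of CD36 that carries glucocerebrosidase, was at 0.04. Cd5l, a secreted macrophage protein with scavenger receptor cysteine-rich domains, had 406 and 294 CPM with BSA and 425 and 408 with AGEs, a log2 fold change of 0.25 (SE 0.13, adjusted p = 0.898, edgeR).

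Of the 4 AGE receptors outside the family, none passed the limits, and the median was 0.21. Ddost and Lgals3, 2 of the 4, had an unadjusted p under 0.05, as did 5.64% of all genes tested (edgeR). For 3 of the 4 the groups did not overlap, as for 35.3% of all genes tested. Ddost, which encodes the oligosaccharyltransferase subunit also known as AGE-R1, had 86.1 and 86.3 CPM with BSA and 111 and 104 with AGEs, the clearest separation on this list. Its log2 fold change was 0.32 (SE 0.09, adjusted p = 0.785, edgeR), below the 1.5-fold limit, and 0.23 with the GC correction, with an unadjusted p under 0.05 in both fits. Lgals3 (galectin-3, AGE-R3) was at 0.25 (SE 0.10, adjusted p = 0.860, edgeR), or 0.17 with the GC correction, where its unadjusted p was no longer under 0.05. Prkcsh (AGE-R2) was at 0.17, or 0.05 with the correction. Ager, the gene of RAGE, had only 30 and 29 counts with BSA and 7 and 35 with AGEs. Its log2 fold change of -0.75 (SE 0.62, adjusted p = 0.928, edgeR) ranged from -2.25 to -0.04 with 1 library left out, and it passed the limits in 1 of those 4 fits.

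The LDL receptor family includes the receptors for native and remnant lipoproteins. Of its 10 listed genes 1 passed the limits, against 1.77% of all genes tested, and was lower with AGEs. This was Vldlr, with 24 and 28 counts under BSA and 17 and 9 under AGEs (log2 fold change -1.22, SE 0.55, adjusted p = 0.879, edgeR). It passed in 1 of the 4 fits with a library left out, where it ranged from -1.79 to -0.80. With the GC correction its log2 fold change was -1.16 and the unadjusted p just above 0.05. The large endocytic receptor Lrp1 had 4382 and 4673 CPM with BSA and 5471 and 5227 with AGEs, a log2 fold change of 0.24 (SE 0.09, adjusted p = 0.848, edgeR), and 0.11 with the GC correction. Lrp12 and Lrp6, the Wnt co-receptor, were at -0.05 and -0.02 (-0.04 and 0.02 with the GC correction), and the median of the list was 0.12.

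Among 15 regulators of the receptor genes, none passed the limits, and 11 were above 0 with a list median of 0.13. Spi1, the gene of PU.1, had 120 and 132 CPM with BSA and 158 and 151 with AGEs, so both AGEs libraries were higher. Its log2 fold change was 0.29 (SE 0.09, adjusted p = 0.807, edgeR), with an unadjusted p under 0.05. With the GC correction it was 0.14, and its unadjusted p was no longer under 0.05. Marco, Olr1 and Stab1, whose promoter windows hold the PU.1 core printed above, were at -0.29, 0.02 and -0.02. Cd36 and Stab2, whose windows lack it, were at 0.09 and 0.54. The part of PU.1 in the receptor values was not tested. Pparg, the nuclear receptor known to induce Cd36 in macrophages, had 58.7 and 73.5 CPM with BSA and 73.9 and 72.01 with AGEs (log2 fold change 0.14, SE 0.11, adjusted p = 0.922, edgeR). Nr1h3 (LXR-alpha), picked after its value was seen, was at 0.37 (SE 0.11, adjusted p = 0.785, edgeR) and at 0.24 with the GC correction. Cebpa was at 0.16 but at -0.05 with the GC correction, Bhlhe40 at -0.02 and Nfe2l2, the oxidative stress factor NRF2, at -0.12.

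Genes that act with or downstream of the receptors also stayed inside the limits. Of 20 partners and signalling genes of CD36, none passed, with 11 above 0 and a median of 0.01. The kinase gene Syk was at 0.07 and the integrin genes Itgb1 and Itgb2 at -0.07 and 0.11. Of 8 adaptors and trafficking partners of the class B and stabilin receptors, 6 had a row and none passed. Pdzk1, the SR-BI adaptor of liver, and Gulp1, which binds STAB1 and STAB2, had no row. Gga3 was at 0.12, Snx17 at 0.08 and Aup1 at 0.02, and with the GC correction they were at 0.05, 0.0017 and -0.12. Of 18 genes that handle internalized lipid, none passed, and the median was 0.0053. Plin2, which coats lipid droplets, was at 0.06, the lipase gene Lpl at 0.17 and Apoe, the carrier of exported cholesterol, at 0.24 (SE 0.12, adjusted p = 0.891, edgeR). With the GC correction Lpl was at 0.22 and Apoe at 0.07.

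**Figure D5:**
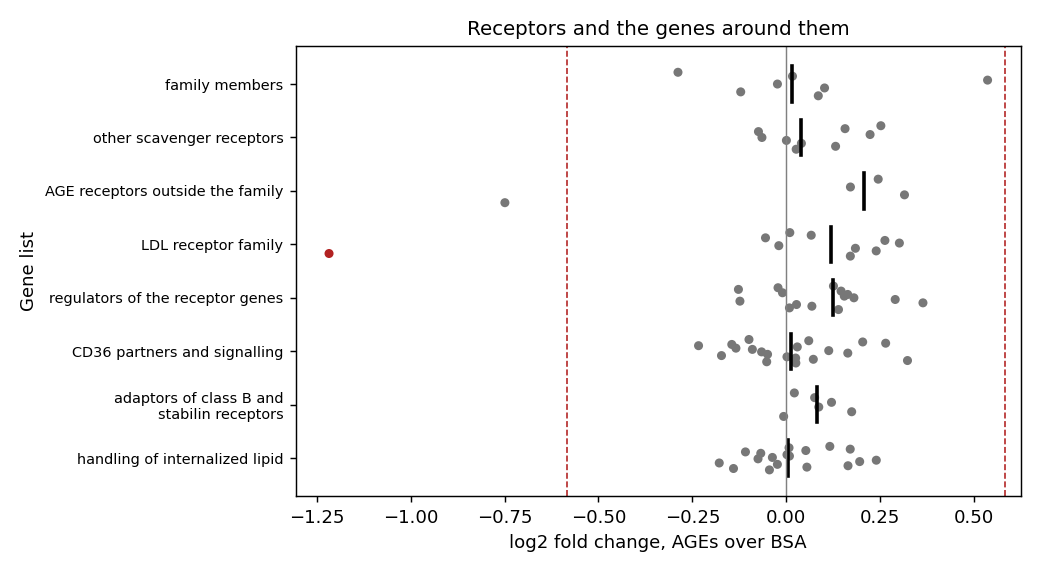
Log2 fold change, AGEs over BSA, of every tested gene (points) in the receptor family and 7 related lists, with the list median (black bar) and dashed lines at 1.5-fold. Vldlr (red) is the 1 gene past both limits, and the list medians lie between 0.0053 and 0.21.

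The genes whose pattern over the 4 libraries was most like that of each receptor were taken among 8049 genes of at least 10 CPM by the root mean square difference of log2 CPM deviations, a measure of likeness over only 4 libraries (8050 genes for Stab2, itself below that level). Cd36 was nearest to Tfb2m (0.0086), Pwp2 and Aldoa, and 109 genes lay within 0.05. Scarb1 was nearest to Hsdl2, Ncoa1 and Psma6, with 158 genes within 0.05, and Olr1 to Card6, Zswim6 and Abca9, with 105. Msr1 was close to Pnp and Ppil4 (67 genes within 0.05). Stab1 was nearest to Wdr12, Papss2 and Bbs12 (27 genes). Stab2 and Marco had the fewest genes within 0.05. A fixed distance takes in fewer genes where the deviations are larger, so these counts do not measure how unusual a pattern is. Stab2 had 3 genes within 0.05 (Eef2k, Sdf2l1 and Actr5) and Marco 1 (Denr, at 0.029), followed by Esf1 and Ppp1r16a. Among the receptors themselves Stab1 and Olr1 were 0.088 apart, and Msr1 was 0.13 from Olr1, its nearest member, against 0.041 for Cd36 and Scarb1.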

How the data were processed

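Total RNA of 2 BSA and 2 AGEs libraries was sequenced after removal of ribosomal RNA with a stranded kit (100 bp paired-end). Reads were aligned by the authors with HISAT2 2.1.0 (mm10, GRCm38), and StringTie 2.1.3b gave their TPM and FPKM. The authors deposited read counts per gene, for which no source names the counting method. No count in it is below 1. TPM, which share a fixed total, depend on the abundant short RNAs of a library. The authors also deposited log2 normalized values with group means, and their DESeq2 comparison: the fold, mean normalized counts (a signal), its log2 error, a Wald score and p-values. The authors' log2, fold, signal, score and p-value columns were not used.

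Counts went into edgeR 4.0.16 under R 4.3.3 (TMM, filterByExpr, robust glmQLFit, glmQLFTest, AGEs against BSA, no block) over the 14181 genes kept, with Benjamini-Hochberg adjustment over all of them. The limits (fold change above 1.5, unadjusted p below 0.05) follow the study. The biological coefficient of variation was 12.9%. The standard error was taken as the size of the log2 fold change over the square root of F. At 17773088 to 24472926 counts per library, precision is set by the 2 libraries per group for all receptors but Stab2, for which counting error adds to it. Coordinates are those of RefSeq GRCm38.p6, with which 15534 of 15575 gene IDs matched. GC content is that of the longest coding GENCODE transcript (13152 tested genes), removed by loess (span 0.5, genes above a log2 CPM of 3). Named from each list are genes past the limits, the 3 with the highest CPM, and Ager, Ddost, Pparg, Spi1 and Lgals3. The most similar genes were ranked without predicted genes, and 1 of them is not reported here. The members and lists were chosen with earlier results of these data known. Alternatives were DESeq2 1.42.0, limma-voom (limma 3.58.1), limma on log2(TPM + 1) and log2(TPM + 0.1), scaling by RLE, upper quartile or library size, testing without a filter, a minimum of 50 counts in 2 libraries or more, a replicate block, the GC correction, each library left out, the adjusted p and a fold limit of 2. Counts per kb of the longest coding transcript were added after seeing the data. Simulated counts in which 200 genes were changed served to test the basic edgeR, DESeq2 and limma-voom fits, and not the other steps.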

Additional observations from a re-analysis of the deposited data

How the results depend on the processing

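No receptor passed the limits under any of the 16 alternative fits, and of their 112 values for the 7 genes 96 kept their sign and 16 did not. Over all genes the count past the limits was 117 higher and 134 lower. It was 64 and 79 with DESeq2, 64 and 63 with a minimum of 50 counts in 2 or more libraries, 57 and 79 at a fold limit of 2, and 0 and 0 at an adjusted p under 0.05 (edgeR). With limma, 58 genes were higher and 142 lower on log2(TPM + 1), and 166 higher and 356 lower on log2(TPM + 0.1). With 1 library left out, 125 to 311 genes were higher and 121 to 232 lower. On log2(TPM + 1) and log2(TPM + 0.1) the log2 fold changes of Cd36 were -0.021 and -0.021, those of Scarb1 -0.00089 and -0.00088, and those of Olr1 -0.089 and -0.089. Olr1 was at -0.0052 with library size normalization. With 1 library left out, the ranges were -0.045 to 0.21 for Cd36, -0.31 to 0.10 for Msr1, -0.033 to 0.23 for Scarb1, -0.27 to 0.19 for Stab1, 0.44 to 0.63 for Stab2, -0.12 to 0.14 for Olr1 and -0.58 to 0.081 for Marco. The cause of these sign changes was not tested. Cd36's share of the summed TPM, 1.39 percentage points higher with AGEs, had differences with 1 library left out that ranged from -0.985 to 3.77, and its ratio to Msr1, 0.823 higher, from -0.143 to 1.79. The labels share replicate numbers, but nothing ties equal numbers to each other, and deviations of equal numbers correlated at 0.028. With the replicate block 131 genes were higher and 133 lower, 0 of the 7 receptors among them, and with the GC correction and the replicate block Scarb1 was at -0.0024.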
